A study of Homo sapiens with 9 samples.

Results

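The genes described here are the 10 clade B serpins that lie side by side on chromosome 18q21: SERPINB5, which encodes maspin, SERPINB12, SERPINB13, SERPINB4, SERPINB3, SERPINB11, SERPINB7, SERPINB2, SERPINB10 and SERPINB8. They were taken by symbol from a table of 42717 genes, and all 10 were in it. In GRCh38.p14 they span 542.8 kb, from the start of SERPINB5 at base 63476958 to the end of SERPINB8 at base 64019779. Poly(A) RNA was sequenced from the sublines S2-007, S2-028 and S2-020 of the human pancreatic cancer cell line SUIT-2, with 3 libraries per line and no treatment. The question was how the lines differ, since the study classed S2-007 as carrying maspin protein in both nucleus and cytoplasm and S2-028 as carrying it in the cytoplasm only, while S2-020 had weak maspin protein. Each line is 1 subline, so a difference between lines holds for these sublines and cannot be assigned to maspin. The labels do not say whether the libraries of a line came from separate cultures, so the p-values measure the spread between these libraries, which may be technical.

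Serpins are protease inhibitors that offer a target protease an exposed loop. When the loop is cut, the serpin changes shape and traps the protease. Clade B serpins differ from most of the family in lacking a cleavable signal peptide, and many act inside the cell, where they restrain proteases released from granules or lysosomes. Maspin has the serpin fold but does not trap proteases, and it has been described in cell adhesion, in motility and in the nucleus. Several of the cluster's genes are typical of squamous epithelium such as epidermis, and maspin, which is scarce in normal pancreatic ducts, often appears in pancreatic cancer.

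Among the 10 members, SERPINB5 and SERPINB8 were expressed above 1 CPM (count per 1e+06 counts) in these cells, and their start regions are shown because their levels behaved differently between the lines. Each sequence is the 250 bases before the RefSeq start of the gene, on its plus strand in GRCh38.p14, at chr18:63476708-63476957 for SERPINB5 and at chr18:63969831-63970080 for SERPINB8. Capitals mark CG dinucleotides, the sites at which DNA can be methylated.
SERPINB5: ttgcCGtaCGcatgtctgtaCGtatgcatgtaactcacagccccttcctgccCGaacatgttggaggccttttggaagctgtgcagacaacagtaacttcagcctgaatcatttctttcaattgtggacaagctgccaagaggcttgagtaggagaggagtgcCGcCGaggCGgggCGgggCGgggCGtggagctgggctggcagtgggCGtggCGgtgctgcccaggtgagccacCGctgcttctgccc
SERPINB8: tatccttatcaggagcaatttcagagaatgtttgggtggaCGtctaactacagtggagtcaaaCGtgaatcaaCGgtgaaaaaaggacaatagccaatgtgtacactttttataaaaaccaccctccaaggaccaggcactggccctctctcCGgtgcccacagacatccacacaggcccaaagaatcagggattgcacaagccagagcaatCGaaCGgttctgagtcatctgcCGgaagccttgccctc
The SERPINB5 stretch held 13 CG and had a GC content of 60%, and the SERPINB8 stretch held 7 CG and had a GC content of 49.2%. The median over 35116 RefSeq start regions of this length was 11 CG. Of the members 8 had such a region, and among the 6 others of them the number of CG was between 0 and 4. The 3 clade B serpins on chromosome 6p25, described below, had 21 CG (SERPINB1), 27 CG (SERPINB9) and 3 to 34 CG at the 4 starts of SERPINB6.

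Letters of binding motifs reported for maspin regulation were searched on both strands of the same stretches. The first base of a match is counted back from the gene start. In SERPINB5, the Ets core GGAA matched 206 and 177 bases before the start, and this word was in 92.7% of all start regions. The AP-1 letters TGANTCA matched at 146 bases, against a share of 6.57% of all start regions, and the E-box letters CACCTG at 26 bases, against 17.5%. The GC box GGGCGG matched at 77 and 72 bases, against 42.6%. TATAAA was not in the SERPINB5 stretch and was in 10.7% of all. SERPINB8 held GGAA at 15 bases, TGANTCA at 185 and 28 bases and TATAAA at 142 and 140 bases. These TATAAA matches lie on opposite strands and overlap. SERPINB8 held neither the GC box nor the E-box letters. Such matches are letters only, and neither methylation nor binding was measured.

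SERPINB5 was the most abundant clade B serpin in S2-007 and was low in S2-020, with S2-028 between them. Levels are given as normalized CPM, which are counts per 1e+06 counts of a library, scaled between libraries by the trimmed mean of M-values. In S2-007 the 3 libraries held 202.6, 220.8 and 211.1 CPM of SERPINB5, from 15168, 16439 and 15551 counts. In S2-028 they held 26.25, 26.04 and 30.9 CPM, and in S2-020 6.903, 6.683 and 6.077 CPM, the last from as few as 436 counts. No library of one line reached the level of another line, so the order S2-007, S2-028, S2-020 held in every library. The means were 211.5 ± 9.10 CPM in S2-007, 27.7 ± 2.75 CPM in S2-028 and 6.55 ± 0.428 CPM in S2-020 (SD, n = 3). In bulk RNA of this kind, fewer cells expressing a gene and less RNA per cell cannot be told apart.

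Each pair of lines was compared with the quasi-likelihood F-test of edgeR over all genes that passed a filter on low counts, with Benjamini-Hochberg adjustment over those genes. A gene was called where its adjusted p was under 0.05 and it changed by 1.5-fold or more, that is 0.585 on the log2 scale. SERPINB5 was 7.61-fold lower in S2-028 than in S2-007, a log2 fold change of -2.93 ± 0.074 (SE, adjusted p = 1.35e-17). It was 33.0-fold lower in S2-020 than in S2-007, a log2 fold change of -5.04 ± 0.070 (adjusted p = 1.02e-20). Of the lines with less of it, S2-028 had 4.23-fold more SERPINB5 than S2-020, a log2 fold change of 2.08 ± 0.104 (adjusted p = 3.59e-12). By log2 fold change, SERPINB5 was number 130 among the most lowered of 26657 genes tested in S2-020 against S2-007, and number 255 of 26371 in S2-028 against S2-007. Against S2-020, S2-028 placed it at number 870 among the most raised of 26031 genes. The 3 comparisons share libraries in pairs and are not independent of each other.

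Of the 10 members, 5 passed the filter in each comparison, and SERPINB5 was the one member called in each: lower in S2-028 and in S2-020 than in S2-007, and higher in S2-028 than in S2-020. Over all genes tested, 18.4% were called in S2-028 against S2-007, with 10.2% higher and 8.19% lower. In S2-020 against S2-007 21.6% were called, with 9.57% higher and 12.1% lower. In S2-028 against S2-020 22.2% were called, with 12.1% higher and 10.1% lower. Libraries of the compared lines did not overlap for 43.3%, 48.5% and 48.9% of genes tested in these comparisons, so separation of the libraries alone was common. Over the 5 members tested, the median log2 fold change was -0.30, -0.60 and 0.65 in the same order, and over all genes tested 0.00, -0.05 and 0.02. With 1 of 5 members called, the share of members called was close to the share of all genes called.

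**Figure D1:**
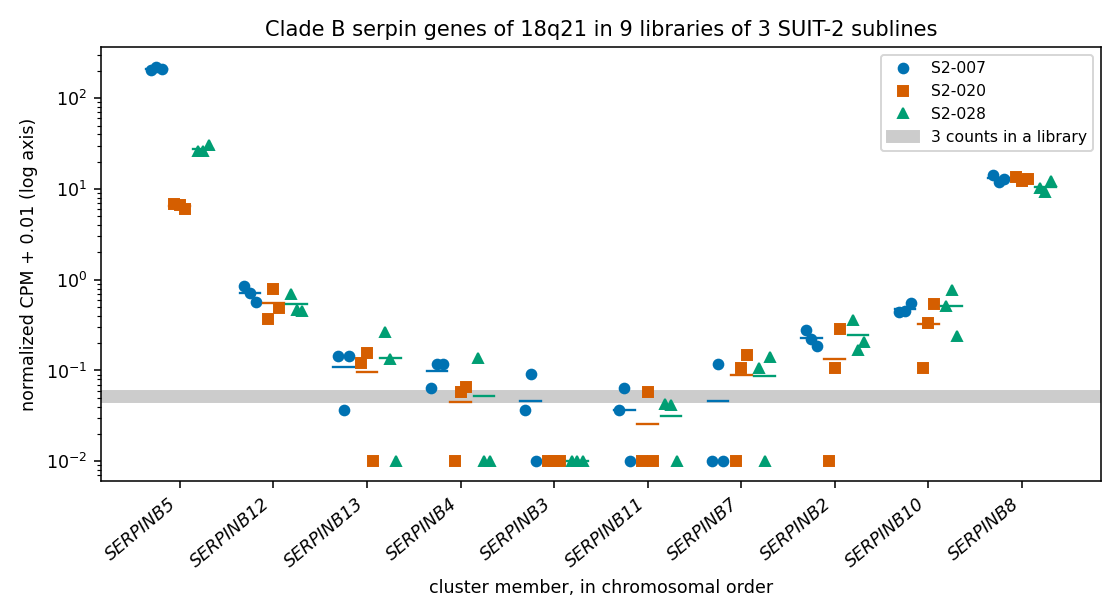
Normalized CPM plus 0.01 on a log axis for the 10 cluster members in chromosomal order, with 1 point per library, short lines for line means and a grey band for the level of 3 counts in a library. SERPINB5 separates into 3 levels with S2-007 near 211.5 CPM, SERPINB8 stays between 9.239 and 14.13 CPM, and the 8 others lie below 1 CPM.

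SERPINB8, an intracellular inhibitor of furin-type proteases, lies at the far end of the cluster and did not follow SERPINB5. Its levels were 14.13, 12 and 13.02 CPM in S2-007, 13.43, 12.21 and 12.81 CPM in S2-020, and 10.23, 9.239 and 12.25 CPM in S2-028. The S2-007 and S2-020 libraries overlapped, and the highest S2-028 library stood above the lowest library of both other lines. The log2 fold change of SERPINB8 was -0.30 ± 0.124 in S2-028 against S2-007 (adjusted p = 0.0688) and -0.28 ± 0.118 in S2-028 against S2-020 (adjusted p = 0.0717). It was -0.06 ± 0.0999 in S2-020 against S2-007 (adjusted p = 0.71). These p-values miss the threshold and do not show that the levels of SERPINB8 are equal. The ratio of SERPINB5 to SERPINB8 counts, taken within each library and so free of scaling between libraries, was 14.3 to 18.4 in S2-007, 2.52 to 2.82 in S2-028 and 0.474 to 0.547 in S2-020. In S2-020, unlike the other lines, more counts fell on SERPINB8 than on SERPINB5.

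The 8 remaining members stayed below 1 CPM in every library. Together they held 41 to 133 counts per library, against totals of 60328748 to 86253923. Of the low counts, from 1 to 20 per gene, 74.6 to 76.1% were even numbers, against 49.1 to 50.8% of counts over 1000, as they would be if both mates of a read pair were counted, and a count of 2 may then be 1 fragment. SERPINB12, an inhibitor of trypsin-like proteases found in epithelia, had the highest mean CPM of them in each line, without correction for length. It was at 0.699 ± 0.143 CPM in S2-007, 0.539 ± 0.217 CPM in S2-020 and 0.530 ± 0.141 CPM in S2-028. SERPINB10, or bomapin, known from blood-forming cells, followed with 0.471 ± 0.0627, 0.317 ± 0.216 and 0.499 ± 0.269 CPM in the same order. SERPINB2, which encodes plasminogen activator inhibitor 2, an inhibitor of the urokinase product of PLAU, was at 0.220 ± 0.0455, 0.125 ± 0.142 and 0.236 ± 0.105 CPM. These 3 were tested, and none was called in any comparison. Their log2 fold changes lay between -0.84 ± 0.891 and 0.91 ± 0.908, both of SERPINB2, so these values do not show that the levels were equal.

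The other 5 members did not pass the filter in any comparison and had at most 16 counts in any library. The floor was taken as 3 counts, which is 0.0348 to 0.0497 CPM depending on the library. SERPINB13, an inhibitor of lysosomal cathepsins that is also called headpin, had 0 to 16 counts per library, SERPINB7, or megsin, 0 to 10 counts, and SERPINB11, thought to lack inhibitory activity, 0 to 4 counts. SERPINB4 and SERPINB3 encode the squamous cell carcinoma antigens, inhibitors of chymotrypsin-like proteases and of lysosomal cathepsins. SERPINB4 had 4, 8 and 8 counts in the libraries of S2-007, 0, 4 and 4 in S2-020 and 8, 0 and 0 in S2-028. SERPINB3 had 2, 6 and 0 counts in S2-007 and 0 counts in all 6 libraries of the other lines. A count of 0 allows up to 0.0497 CPM in the shallowest library if each count is an independent read, and more if both mates were counted, so no difference between lines was read from these 5 genes. These limits cover counting error only.

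Reads of some members could not be assigned to 1 gene with certainty. SERPINB3 and SERPINB4 are near-identical copies: 1633 of 1707 bases (95.7%) were identical between their longest GENCODE transcripts, and 247 of 250 bases (98.8%) between the stretches before their starts. Of the 31-base words of SERPINB3 transcripts, 66.1% also occurred in transcripts of other genes, on either strand, and 40.5% in those of SERPINB4. A gene on the opposite strand covered 36.3% of the exon bases of SERPINB3. Of the words of SERPINB4, 34.6% also occurred in other genes, mainly SERPINB3. For SERPINB2 and SERPINB10 19.0% and 14.8% did, mainly in a readthrough transcript that joins both genes. SERPINB5 shared 1.55% of its words with other genes and none of its exon bases lay under another gene, so its counts were little exposed to this. SERPINB8 shared 8.00%, of which the larger part was with its neighbour HMSD.

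Levels of different genes were compared per length, as normalized CPM per kb of merged exons in GENCODE v44. On this scale SERPINB5 was at 56.5 ± 2.43 in S2-007, 7.41 ± 0.734 in S2-028 and 1.75 ± 0.114 CPM per kb in S2-020. SERPINB8 was at 2.26 ± 0.186, 1.83 ± 0.266 and 2.22 ± 0.106 CPM per kb in the same order, so its level in S2-020 stood above that of SERPINB5. Every other member had at most 0.231 CPM per kb as the mean of any line. By mean per kb, SERPINB10 stood above SERPINB12 in each line, unlike by CPM, and their spreads (SD) overlapped. The values were 0.219 against 0.173 in S2-007, 0.147 against 0.134 in S2-020 and 0.231 against 0.131 in S2-028.

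The 3 clade B serpins outside the cluster, on chromosome 6p25, were expressed in all lines and moved less than SERPINB5. SERPINB1, the leukocyte elastase inhibitor, was at 58.1 ± 4.92 CPM in S2-007 and 57.3 ± 3.66 CPM in S2-028, and lower in S2-020 at 30.4 ± 3.18 CPM (log2 fold change -0.97 ± 0.0808 against S2-007, adjusted p = 5.29e-09). SERPINB6, an inhibitor of trypsin-like proteases and of cathepsin G, was at 45.2 ± 2.03 CPM in S2-007 and 45.3 ± 3.36 CPM in S2-020, and higher in S2-028 at 71.6 ± 3.30 CPM (log2 fold change 0.67 ± 0.0657 against S2-007, adjusted p = 4.15e-08). SERPINB9, the granzyme B inhibitor, was at 35.4 CPM in S2-007, 44.1 CPM in S2-020 and 43.6 CPM in S2-028, and was not called in any comparison. In S2-020 against S2-007, where SERPINB5 was called lower, SERPINB1 was the 1 gene of these 3 that was called, also lower, and SERPINB6 had a log2 fold change of -0.03 ± 0.0674.

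Summed over all 13 clade B serpins, S2-007 held 351 to 381 CPM, S2-028 205 to 216.5 CPM and S2-020 138 to 142.5 CPM. SERPINB5 took 57.7 to 58.2% of the clade B counts in S2-007, 12.2 to 14.3% in S2-028 and 4.26 to 5.01% in S2-020. In S2-020 SERPINB6 took 30.2 to 33.9% of counts and SERPINB9 30.1 to 33.1%. In S2-028 SERPINB6 took the largest share of counts at 31.6 to 36.5%. These shares are not corrected for length, and SERPINB6 has 13201 bases of merged exons against 3047 for SERPINB1. Per kb, SERPINB6 was the lowest of the 3 genes of 6p25, at 3.43 CPM in S2-020 and 5.42 CPM in S2-028. In these lines SERPINB1 was at 9.97 and 18.8 CPM per kb, and SERPINB9 at 10.6 and 10.5 CPM per kb. Within the cluster alone, SERPINB5 made up 92.7 to 94.2% of the counts in S2-007, 68.1 to 70.7% in S2-028 and 29.8 to 33.0% in S2-020.

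**Figure D2:**
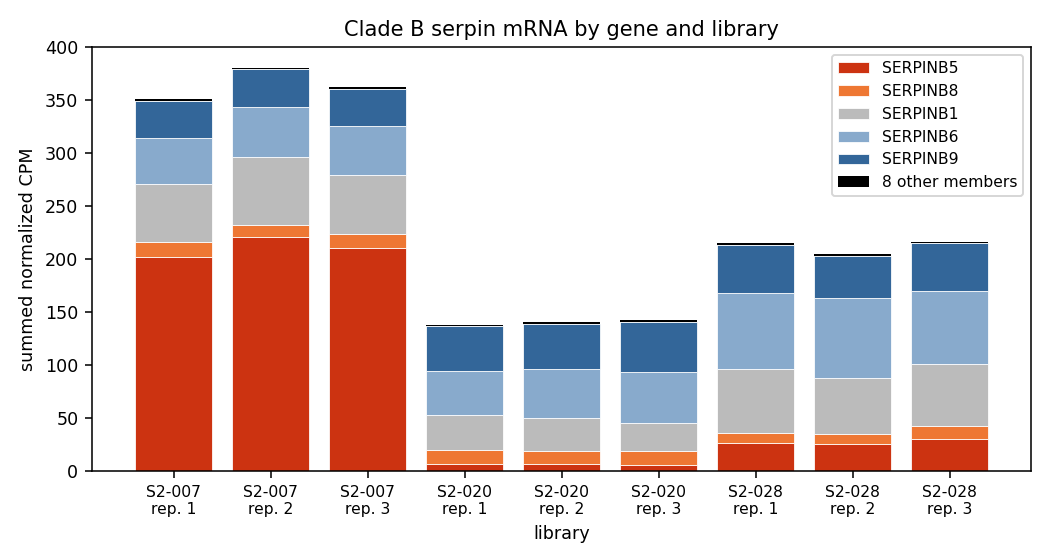
Summed normalized CPM of the clade B serpins in each library, as stacked bars that start at 0, with the 8 low members of the cluster as 1 black segment. SERPINB5 fills 57.7 to 58.2% of the bars of S2-007, while SERPINB8, SERPINB1, SERPINB6 and SERPINB9 fill most of the bars of S2-020 and S2-028.

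Genes beside the cluster did not move with SERPINB5 as a block. VPS4B, an ATPase of membrane remodelling and the nearest protein-coding gene before SERPINB5, was not called in any comparison. It was at 35.8 ± 0.740 CPM in S2-007, 27.3 ± 0.475 CPM in S2-020 and 38.1 ± 1.49 CPM in S2-028. Its log2 fold change was -0.42 ± 0.0673 in S2-020 against S2-007 (adjusted p = 3.07e-05). In S2-028 against S2-020 it was 0.48 ± 0.0718 (adjusted p = 1.52e-05). Both had the sign of SERPINB5 but lay under the fold threshold. In S2-028 against S2-007, where SERPINB5 was called lower, the log2 fold change of VPS4B was 0.09 ± 0.0733 (adjusted p = 0.391). KDSR, a sphingolipid synthesis enzyme next to VPS4B, was at 59.7, 56.1 and 58.1 CPM. BCL2, the apoptosis inhibitor, was higher in S2-020 at 7.97 ± 0.853 CPM than in S2-007 at 4.07 ± 0.406 CPM (log2 fold change 0.94 ± 0.143, adjusted p = 1.88e-05), opposite in direction to SERPINB5. On the other side, LINC00305, the nearest gene after SERPINB8, held 0 to 8 counts per library.

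TNFRSF11A, which encodes the receptor RANK and starts at -1152 kb relative to SERPINB5, was the one tested protein-coding gene on that flank as far as RNF152 that was called lower in both S2-020 and S2-028. It was at 52.1 ± 1.87 CPM in S2-007, 4.91 ± 0.852 CPM in S2-020 and 8.39 ± 0.292 CPM in S2-028. Its log2 fold changes were -3.44 ± 0.101 in S2-020 and -2.63 ± 0.0831 in S2-028 against S2-007 (adjusted p = 5.35e-16 and 4.41e-16). Between TNFRSF11A and SERPINB5, ZCCHC2, PHLPP1, KDSR and VPS4B were not called.

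HMSD, whose product carries part of a serpin domain, lies between SERPINB10 and SERPINB8. In S2-028 against S2-007 it moved opposite to SERPINB5, while in S2-028 against S2-020 both were called higher. In S2-020 against S2-007 HMSD was not tested. Its counts were 30, 6 and 0 in S2-007, 4, 18 and 6 in S2-020, and 80, 140 and 80 in S2-028, so every S2-028 library stood above all others. HMSD rose in S2-028 by a log2 fold change of 3.29 ± 0.627 against S2-007 (adjusted p = 2.37e-04) and 3.70 ± 0.460 against S2-020 (adjusted p = 1.62e-06), at a level of 1.60 ± 0.515 CPM. It shares transcript words with SERPINB8, whose own level was not higher in S2-028.

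Of 19 listed genes on both sides of the cluster and, with HMSD, within it, 1 (HMSD) was called higher and 3 lower in S2-028 against S2-007, 2 higher and 3 lower of 18 tested in S2-020 against S2-007, and 2 higher and 2 lower of 18 in S2-028 against S2-020. The others lowered against S2-007 in both lines were DSEL, which takes part in dermatan sulfate synthesis, and TCF4, a basic helix-loop-helix transcription factor. MALT1, a paracaspase of NF-kB signalling, was higher in S2-020 at 48.1 ± 4.04 CPM than in S2-007 at 24.97 ± 0.615 CPM (log2 fold change 0.92 ± 0.0728, adjusted p = 2.52e-09). Over the 50 tested genes nearest to SERPINB5, the median log2 fold change was 0.01 in S2-028 and -0.08 in S2-020 against S2-007, and over all tested genes of chromosome 18 it was 0.02 and -0.00. Of the 50, 18% and 26% were called, against 12.7% and 18.2% of the chromosome's genes and 18.4% and 21.6% of all genes tested. In S2-028 against S2-020 the order was reversed, with 14% of the 50 nearest called. There 18% of the chromosome's genes and 22.2% of all genes tested were called.

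**Figure D3:**
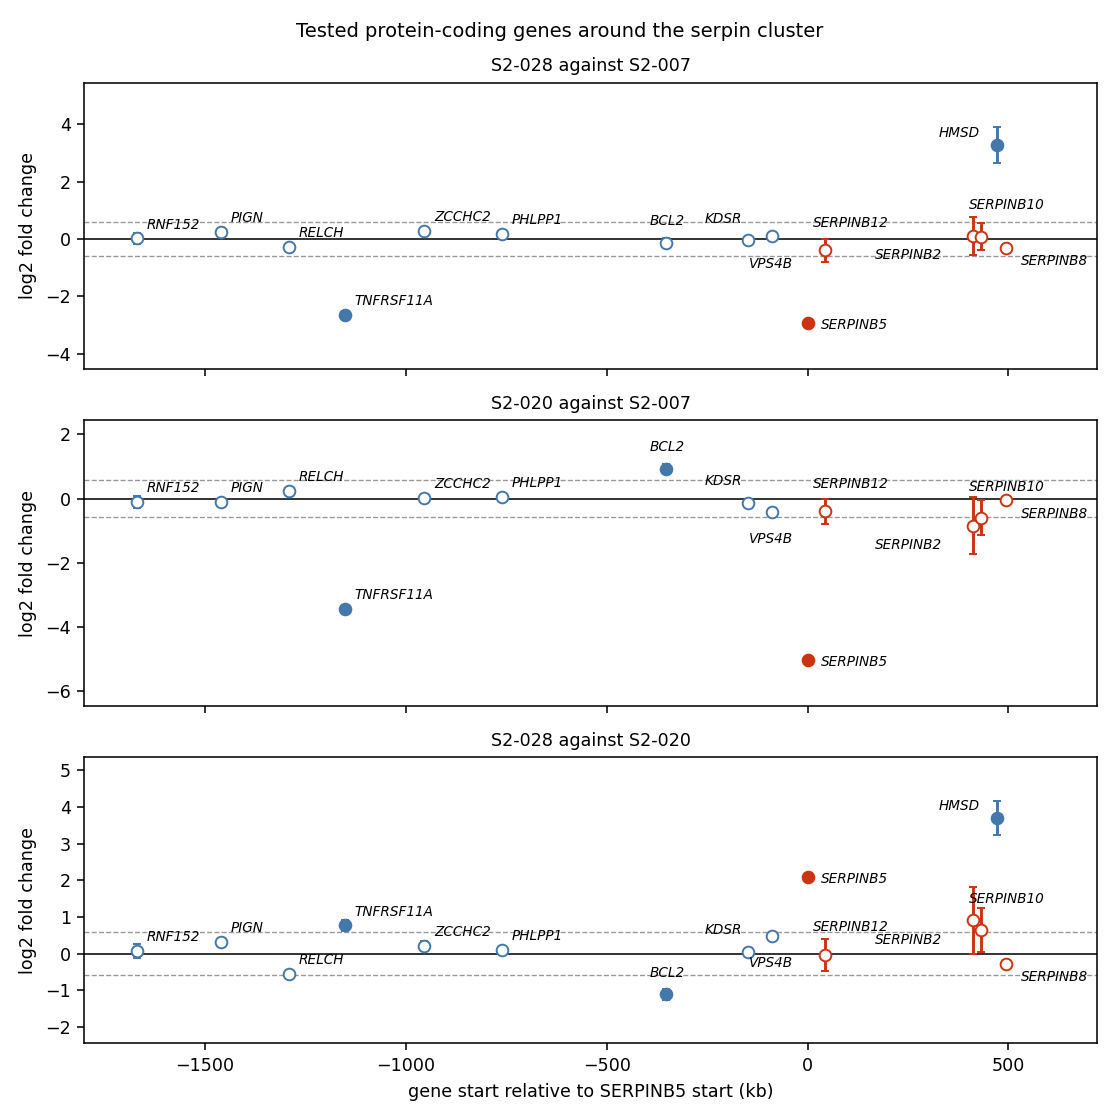
Log2 fold change with its standard error for tested protein-coding genes against the distance of their start from that of SERPINB5 in kb, with cluster members in red, other genes in blue, filled points for called genes and dashed lines at a log2 fold change of 0.585 in size. SERPINB5 is the one filled member in each panel, TNFRSF11A is also low in both comparisons with S2-007, at -2.63 beside -2.93 for SERPINB5 in the top panel, and HMSD, not tested in the middle panel, lies high in S2-028.

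The genes whose levels followed SERPINB5 most closely were found by Pearson correlation of log2 CPM over the 9 libraries among 16880 genes with a mean of at least 1 CPM. They were KIAA0040 (r = 0.9993), CKMT1A (0.9983), a mitochondrial creatine kinase, ALS2CL (0.9975), ADAM19 (0.9971), a membrane-bound metalloprotease, and DPEP1 (0.9968), a membrane dipeptidase. These values mostly restate 3 line means, since the libraries of a line share their cells, and they are a description with no test. KIAA0040 was at 192.2 ± 14.9 CPM in S2-007, 17.4 ± 2.25 CPM in S2-028 and 3.36 ± 0.361 CPM in S2-020, and DPEP1 at 217.1 ± 32.4, 20.7 ± 1.38 and 4.201 ± 0.662 CPM. ALS2CL covered a narrower range, from 108.9 ± 3.25 CPM in S2-007 to 26.5 ± 0.986 CPM in S2-020. CKMT1A has a near-identical copy, CKMT1B, with which it can share reads. The genes most like SERPINB8 were SLCO4A1-AS2 (r = 0.9574), LOC101928053 (0.9495) and FAM114A2 (0.9426), all lowest in S2-028 by mean.

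**Figure D4:**
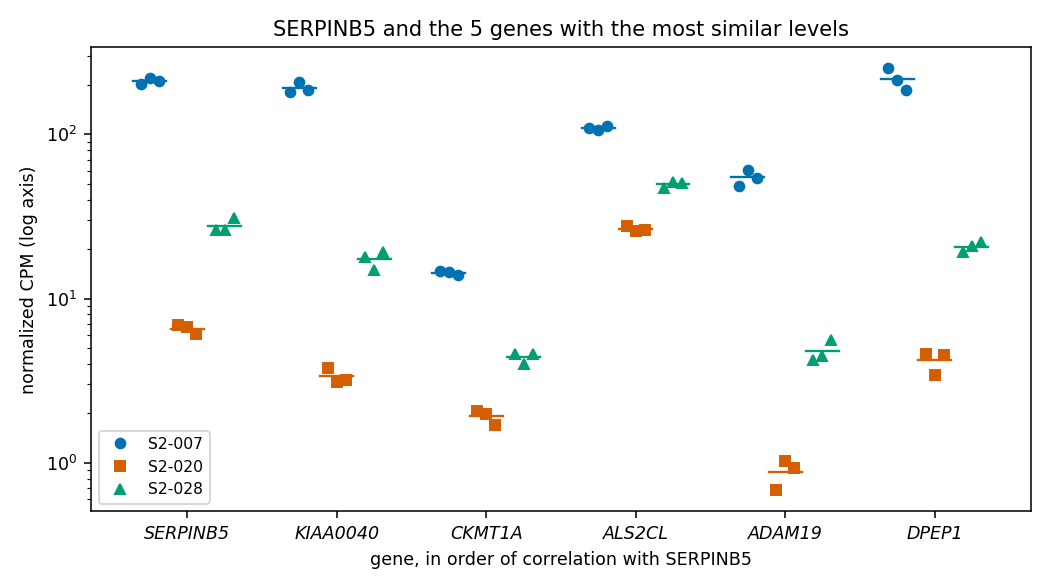
Normalized CPM on a log axis of SERPINB5 and the 5 genes with the highest correlation to it, with 1 point per library and short lines for line means. All 6 genes are highest in S2-007 and lowest in S2-020, with S2-028 between, by construction of the choice, and ADAM19 spans from 54.6 to 0.883 CPM.

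Proteases that clade B serpins bind, or that are reported to bind maspin, were examined as the other side of the pathway. Of 24 genes listed 16 were tested, and 4 were called higher and 4 lower in S2-028 against S2-007, 4 higher and 3 lower in S2-020 against S2-007, and 4 higher and 5 lower in S2-028 against S2-020. Over the tested genes of the list the median was 0.20, -0.29 and 0.46 on the log2 scale. The shares of all genes tested that were called were 18.4%, 21.6% and 22.2% in the same order. PLAU, which encodes the plasminogen activator urokinase, the target of SERPINB2, was at 407.8 ± 43.2 CPM in S2-007, 740.5 ± 56.6 CPM in S2-020 and 2697 ± 328 CPM in S2-028. It was higher than in S2-007 by a log2 fold change of 2.73 ± 0.0815 in S2-028 (adjusted p = 1.90e-16) and 0.83 ± 0.0639 in S2-020 (adjusted p = 1.54e-09). PLAUR, its receptor, was also higher in both, at 12.7 CPM in S2-007, 45.7 CPM in S2-020 and 25.3 CPM in S2-028. SERPINB2, the gene of this urokinase inhibitor, was at most at 0.354 CPM in any library.

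PLAT, the tissue plasminogen activator, moved opposite to PLAU. It was at 314.1 ± 39.4 CPM in S2-007, 142.0 ± 9.35 CPM in S2-020 and 8.98 ± 2.53 CPM in S2-028, a log2 fold change of -1.18 ± 0.0771 in S2-020 and -5.13 ± 0.149 in S2-028 against S2-007 (adjusted p = 1.29e-10 and 1.31e-16). Of the furin-like convertases, which cut precursor proteins and which SERPINB8 can inhibit, PCSK6 was lower in S2-020 and S2-028 than in S2-007, at 77.3, 26.9 and 15.1 CPM in the order S2-007, S2-020, S2-028. PCSK5 was lower in S2-020 at 14.4 ± 2.32 CPM than in S2-007 at 163.6 ± 4.81 CPM (log2 fold change -3.54 ± 0.0878, adjusted p = 3.72e-17), and was at 120.0 ± 4.399 CPM in S2-028. FURIN, added after its values were seen, was at 118.5, 99.7 and 119.9 CPM in the order S2-007, S2-020, S2-028. Its log2 fold change was 0.02 ± 0.0593 in S2-028 against S2-007 (adjusted p = 0.848). Of the lysosomal cathepsins, CTSH was higher in S2-028 at 53.9 CPM and in S2-020 at 32.8 CPM than in S2-007 at 19.4 CPM. CTSS was lower in S2-028, at 4.46 CPM against 14.7 CPM in S2-007.

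**Figure D5:**
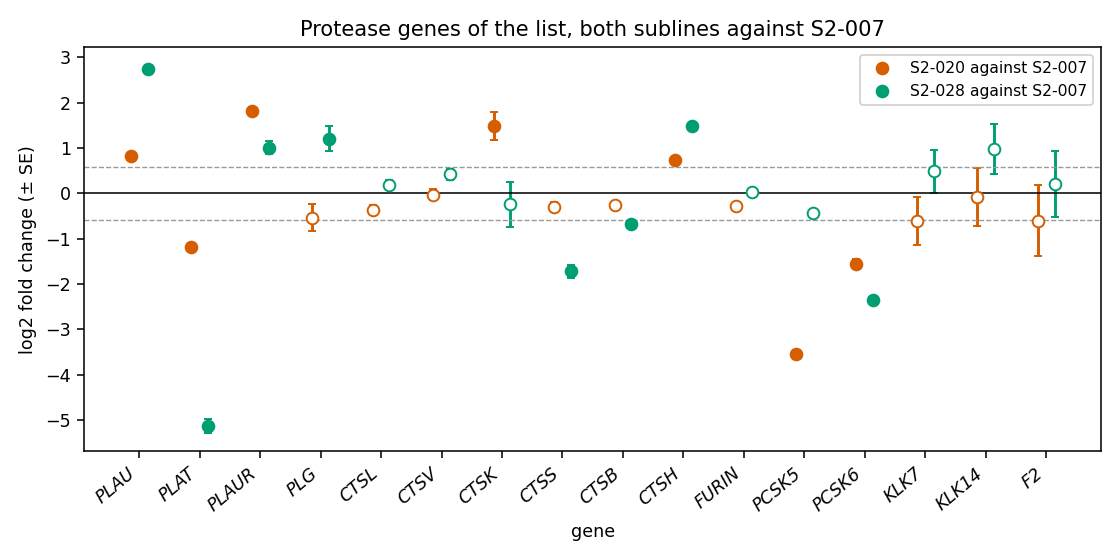
Log2 fold change with its standard error of the 16 tested genes of the protease list, which includes the receptor gene PLAUR, in S2-020 and in S2-028 against S2-007, with filled points for called genes and dashed lines at a log2 fold change of 0.585 in size. PLAU is higher and PLAT lower in both lines, and PCSK5 falls below the lower line in S2-020 alone.

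Transcription regulators reported to act on maspin did not move together. Of 22 tested, 3 were called higher and 2 lower in S2-028 against S2-007, 5 higher and 4 lower in S2-020 against S2-007, and 2 higher and 4 lower in S2-028 against S2-020. Their median was -0.02, 0.13 and -0.09 on the log2 scale. Among all genes tested, 18.4%, 21.6% and 22.2% were called in these comparisons. SNAI2, which encodes the E-box repressor Slug, was at 14.5 ± 2.27 CPM in S2-007, the line with the most SERPINB5, and at 0.633 ± 0.139 CPM in S2-020 and 0.539 ± 0.250 CPM in S2-028. SNAI1, which encodes the related repressor Snail and was added after its values were seen, went the other way, at 0.396 ± 0.152 CPM in S2-007, 1.01 ± 0.271 CPM in S2-020 and 1.04 ± 0.204 CPM in S2-028. It was called higher than in S2-007 in both lines (log2 fold change 1.32 ± 0.377 in S2-020 and 1.40 ± 0.389 in S2-028, adjusted p = 0.00767 and 0.00725). JUN, an AP-1 subunit, was at 49.9 ± 6.76, 319.6 ± 13.7 and 137.9 ± 5.43 CPM in the same order, S2-007 first, and its order over the lines was the reverse of that of SERPINB5. Of 2 other AP-1 subunits, likewise added after their values were seen, JUNB was at 60.5 ± 3.94, 27.3 ± 2.42 and 41.9 ± 5.17 CPM, in the order of SERPINB5, and FOS at 3.68 ± 0.968, 1.23 ± 0.148 and 4.27 ± 0.580 CPM. Both were called lower in S2-020 than in S2-007 (log2 fold change -1.18 ± 0.0759 and -1.61 ± 0.229, adjusted p = 1.01e-10 and 7.60e-06). ETS1 was higher in S2-020 at 351.3 ± 20.2 CPM than in S2-007 at 138.1 ± 18.1 CPM, with 146.7 ± 17.98 CPM in S2-028, while ETS2 was lower in S2-028 at 34.6 ± 2.12 CPM than in S2-007 at 53.8 ± 0.590 CPM.

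DNMT3B, a DNA methyltransferase, was at 6.54 ± 0.619 CPM in S2-007, 11.2 ± 0.604 CPM in S2-020 and 12.8 ± 1.75 CPM in S2-028, with a log2 fold change against S2-007 of 0.74 ± 0.118 (adjusted p = 3.08e-05) in S2-020 and 0.97 ± 0.132 (adjusted p = 3.80e-06) in S2-028. Whether any of these bore on SERPINB5 was not tested.

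Of 11 genes whose products are reported to bind maspin, 3 were called higher and 1 lower in S2-028 against S2-007, 1 higher and 4 lower in S2-020 against S2-007, and 3 higher and 1 lower of 10 tested in S2-028 against S2-020. The shares called among all genes tested were 18.4%, 21.6% and 22.2% in the same order. PLAU and COL1A1, a collagen chain gene, were among those higher in S2-028. COL1A1 was at 2.14 ± 0.859 CPM in S2-007, 1.32 ± 0.282 CPM in S2-020 and 3.63 ± 1.29 CPM in S2-028. Its libraries overlapped between S2-007 and S2-028. The highest S2-007 library, at 3.126 CPM, stood above S2-028 libraries at 2.915 and 2.853 CPM. HDAC1, a histone deacetylase, was lower in S2-020 at 170.3 ± 6.60 CPM than in S2-007 at 260.8 ± 3.72 CPM (log2 fold change -0.65 ± 0.0505, adjusted p = 1.93e-09), and was at 216.1 ± 16.3 CPM in S2-028.

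Serpins of other clades, which are mostly secreted, included several called genes. Of 22 listed 13 were tested, and 2 were called higher and 5 lower in S2-028 against S2-007, 1 higher and 7 lower in S2-020 against S2-007, and 6 higher and 2 lower in S2-028 against S2-020. The median over the 13 was -0.25, -1.08 and 0.98 on the log2 scale. In the same order, 18.4%, 21.6% and 22.2% of all genes tested were called. SERPINE2, the secreted inhibitor of thrombin and plasminogen activators also called protease nexin 1, fell from 498.3 ± 70.9 CPM in S2-007 to 9.87 ± 0.714 CPM in S2-020 and 1.62 ± 0.419 CPM in S2-028. Its log2 fold change against S2-007 was -5.69 ± 0.0932 in S2-020 and -8.25 ± 0.136 in S2-028 (adjusted p = 9.15e-20 and 2.41e-20), so unlike SERPINB5 it was lowest in S2-028. SERPINA1, the neutrophil elastase inhibitor alpha-1-antitrypsin, and SERPINA6, the cortisol carrier, had the same order over the lines as SERPINB5. SERPINA1 was at 11.4 ± 0.934 CPM in S2-007, 2.61 ± 0.211 CPM in S2-028 and 0.198 ± 0.0687 CPM in S2-020, and SERPINA6 at 4.15 ± 0.771, 0.619 ± 0.0980 and 0.171 ± 0.0856 CPM. SERPING1, the inhibitor of complement C1 proteases, was higher in S2-028 at 4.23 ± 0.990 CPM than in S2-007 at 0.197 ± 0.0903 CPM (log2 fold change 4.41 ± 0.328, adjusted p = 5.22e-10). SERPINF2, the plasmin inhibitor alpha-2-antiplasmin, was at 3.52 ± 0.941 CPM in S2-007, 0.752 ± 0.222 CPM in S2-020 and 5.42 ± 1.47 CPM in S2-028.

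The labelled cell type was checked with markers. All 10 ductal epithelial markers, KRT8, KRT18 and KRT19 among them, had a mean of at least 1 CPM in each line, summing to 9810 to 10300 CPM in S2-007, 4610 to 5720 CPM in S2-020 and 15600 to 18200 CPM in S2-028. In S2-020, where SERPINB5 was lowest, 7 of the 10 were called lower than in S2-007, against 12.1% of all genes tested. KRT19 was at 102.8 ± 12.9 CPM in S2-020 against 2123 ± 40.7 CPM in S2-007. Markers of acinar cells summed to at most 1.60 CPM, of endocrine cells to at most 2.00 CPM and of fibroblasts to at most 8.88 CPM in any library. Blood cell markers summed to 339 to 412 CPM in S2-007, 12.1 to 13.3 CPM in S2-020 and 14.2 to 14.9 CPM in S2-028, nearly all of it LYZ, the lysozyme gene, and CD68, a lysosomal protein, both of which epithelial cells can express. PTPRC, the pan-leukocyte gene, was between 0.0835 and 0.407 CPM. The part of these differences in the SERPINB5 result was not tested.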

How the data were processed

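Per the labels and the study's methods, strand-specific libraries were sequenced on an Illumina instrument, and the submitters' processing notes name Trimmomatic 0.39, BWA 0.7.17, SAMtools 1.12 and edgeR 3.16.5 with GRCh38.p14. The counting tool and its use of strand are not given in the sources used here, and BWA does not join reads across introns. The authors deposited counts of mapped reads per gene as whole numbers. The same table holds 18 columns of signal that the authors normalized, not used here, and 2 lines that name no gene and stayed out.

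Counts of 60328748 to 86253923 per library were tested by glmQLFTest of edgeR 4.0.16 (R 4.3.3) after filterByExpr (min.count 10, min.total.count 15), TMM and glmQLFit, each fit holding the 6 libraries of 2 lines. Log2 CPM used a prior count of 2. SE are the log2 fold change divided by the root of F. Scripts were tested on simulated counts. Coordinates and promoters come from RefSeq, with 99.6% of genes matched, and exons from GENCODE v44. Members and lists were chosen with earlier results of these data known. The text names all members, the 3 genes of 6p25, the nearest genes, at most 4 called genes with the smallest adjusted p per list and comparison, and the most correlated genes. Some genes that this rule names are not reported here. DESeq2 1.42.0 was among the alternatives.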

Additional observations from a re-analysis of the deposited data

How the results depend on the processing

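SERPINB5 kept its direction and its call under every alternative run in the 3 comparisons: median-ratio size factors, DESeq2, the likelihood ratio test, 2 other filters, all 9 libraries in 1 fit, the replicate block, and each library left out. Halving the counts, chosen after seeing the data, left it so too. Without 1 library at a time its log2 fold change was -3.01 to -2.89 in S2-028 against S2-007, -5.08 to -4.99 in S2-020 against S2-007 and 2.01 to 2.14 in S2-028 against S2-020. No other member was called under any of these. The adjusted p of SERPINB8 ranged from 0.0164 to 0.253 in S2-028 against S2-007 and from 0.0158 to 0.307 in S2-028 against S2-020, always below the fold threshold.

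The numbers of genes called ranged from 4502 to 5141 in S2-028 against S2-007, 5269 to 6068 in S2-020 against S2-007 and 5294 to 6074 in S2-028 against S2-020. Same-numbered libraries of different lines did not deviate together (9 pairs, r from -0.038 to 0.090, none over 0.1), so the numbers were not taken as pairs. With the replicate number as a block 4865, 5650 and 5716 genes were called.

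Signs turned for some uncalled members, whose fold changes were near 0 or imprecise. SERPINB10 in S2-028 against S2-007 went to -0.0286 with the replicate block and -0.37 without S2-028 replicate 2, and lay between -0.37 and 0.43 with 1 library left out. SERPINB2 in the same comparison went to -0.04 without S2-007 replicate 3 and -0.32 without S2-028 replicate 1 (range -0.32 to 0.33). SERPINB8 in S2-020 against S2-007 went to 0.0189 without S2-007 replicate 1 (range -0.0985 to 0.0189). SERPINB12 in S2-028 against S2-020 went to 0.0083 with the replicate block, 0.34 without S2-020 replicate 2, and 0.09 without S2-028 replicate 2 and likewise without S2-028 replicate 3 (range -0.27 to 0.34). The cause was not tested. The 5 members under the filter on low counts had at most 16 counts in any library, and the SE of the 3 low members tested limit what could be called.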

Other observations

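Markers of squamous epithelium, a setting in which several genes of the cluster are typically expressed, were mostly low. Of 19 such genes, 3 or 4 had a mean of at least 1 CPM in each line. Of the 11 tested in S2-020 against S2-007, 1 was called higher and 4 lower. Among all genes tested there, 9.57% were called higher and 12.1% lower. KRT5, a basal keratin, was at 26.7 ± 3.37 CPM in S2-020 and at 0.0723 ± 0.103 and 0.130 ± 0.118 CPM in S2-007 and S2-028. LY6D, a surface protein of stratified epithelia, was at 33.1 ± 5.26 CPM in S2-007, 3.22 ± 0.475 CPM in S2-028 and 0.285 ± 0.217 CPM in S2-020, in the order of SERPINB5. SFN, the epithelial 14-3-3 protein stratifin, was at 91.8 ± 7.04, 49.6 ± 4.96 and 103.5 ± 5.87 CPM in the order S2-007, S2-020, S2-028.

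SMAD4, a TGF-beta signalling gene that also lies on 18q21 and was singled out after its values were seen, had 39 to 59 counts in each of the 9 libraries, with means of 0.641 ± 0.0102 CPM in S2-007, 0.708 ± 0.131 CPM in S2-020 and 0.754 ± 0.146 CPM in S2-028.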
